A study of Mus musculus with 200 samples.

Results

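Cytosolic ribosomal protein genes were read out of the 3SEQ tables by their symbols, which gave 81 genes of the 22033 listed. Of these, 49 encode proteins of the large subunit (Rpl) and 32 proteins of the small subunit (Rps). In all, 77 lie on autosomes and 4 on the X chromosome (Rps4x, Rpl10, Rpl36a and Rpl39). Single whole mouse embryos at E11.5 were profiled from crosses of C57BL/6J (B6) with CAST/EiJ (Cast), an inbred strain derived from the castaneus subspecies. The F1 embryos were 8 from B6 mothers and Cast fathers (B6 × Cast) and 8 from Cast mothers and B6 fathers (Cast × B6), from 2 litters each. The N2 embryos came from backcrosses of (B6 × Cast)F1 animals to B6, with 89 embryos of B6 mothers and F1 fathers (B6 × F1, 17 litters) and 65 of F1 mothers and B6 fathers (F1 × B6, 12 litters). At each autosomal gene an N2 embryo is therefore either B6/B6 or B6/Cast. Counted reads were 15703888 to 38234229 per F1 and 245220 to 5370322 per N2 embryo. Embryos were freed of their membranes before RNA was made, and no cell type was separated.

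Ribosomal proteins, together with the ribosomal RNAs, build the small subunit that decodes mRNA and the large subunit that joins amino acids. A cell needs them in near equal amounts, and their mRNAs are among the most abundant in growing tissue such as the embryo. Most of these genes have left processed pseudogenes, copies of the spliced mRNA that were inserted elsewhere in the genome. The authors discarded every read whose second-best alignment lay within 3 edits of the best, so a read from a stretch that a pseudogene shares was not counted. The levels below are RPM, the reads of a gene scaled to the same total of counted reads in each library. They cover only the reads that could be placed, and the order of members by RPM is not the order of their transcripts.

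The ends of a few coding sequences show how close the copies of this family can be. Each line below gives the last 60 coding bases of a member in mm9, 5′ to 3′, or the nearest ungapped copy elsewhere in the genome, where capitals mark the bases at which the copy differs from the member. Rps3 and Rpl8 were the members with the highest RPM, Rpl7a had the most copies, and Rpl11 and Rpl6 differed most between genotypes.
Rps3 (chr7:106626406-106632248, minus strand): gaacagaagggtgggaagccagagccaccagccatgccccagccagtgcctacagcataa
Copy of Rps3 (chrX:11261128-11261187, minus strand, pseudogene Gm14513): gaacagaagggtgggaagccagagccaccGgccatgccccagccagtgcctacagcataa
Rpl8 (chr15:76734501-76736748, plus strand): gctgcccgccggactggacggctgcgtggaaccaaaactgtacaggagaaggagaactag
Copy of Rpl8 (chr14:104765313-104765372, plus strand, no annotated gene): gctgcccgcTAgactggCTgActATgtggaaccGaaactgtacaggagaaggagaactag
Rpl7a (chr2:26766284-26768838, plus strand): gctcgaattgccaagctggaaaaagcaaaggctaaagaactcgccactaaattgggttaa
Rpl11 (chr4:135584180-135609343, minus strand): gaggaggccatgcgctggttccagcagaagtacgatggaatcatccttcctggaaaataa
Rpl6 (chr5:121654490-121659250, plus strand): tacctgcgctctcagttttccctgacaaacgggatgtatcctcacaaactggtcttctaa

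The nearest copy of the Rps3 end differed at 1 base and that of the Rpl8 end at 8. The ends of Rpl7a, Rpl11 and Rpl6 were found without a difference at chr1:168875725-168875784 (pseudogene Gm6286), at chr3:146501775-146501834 (Gm10288, annotated as protein coding) and at chr1:88805368-88805427 (pseudogene Gm6136, inside Dis3l2). Full-length matches within 3 edits elsewhere in mm9 numbered 51 for the Rpl7a end, 6 for Rpl6, 3 for Rpl11, 2 for Rps3 and 0 for Rpl8. For the whole family, windows of the N2 read length were taken every 10 bases over the 300 transcript bases that end at most 50 bases after the stop codon. A window was called unique when its next best match in mm9 differed by more than 3 edits. Among the 80 members with a matched transcript (all but Rpl41), 56 had 0 unique windows, 14 had some but under 40%, and 10 had at least 40%, a boundary set after the values were seen. With the last 300 bases of the annotated transcript in place of the coding end, 41 members had 0 unique windows, 13 had some and 26 had at least 40%, and 16 of the 56 were no longer at 0. Rps3, Rpl11 and Rpl6 were 100% unique there, Rpl8 90% and Rpl7a 0%. Which of these stretches the reads came from is not recorded in the tables. Other copies in mm9 were counted where they matched at least 80% of the stretch of up to 300 bases at the coding end, at 90% identity or more. The median member had 9.5 such copies, 4 members had none, and Rpl7a had 93.

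**Figure D1:**
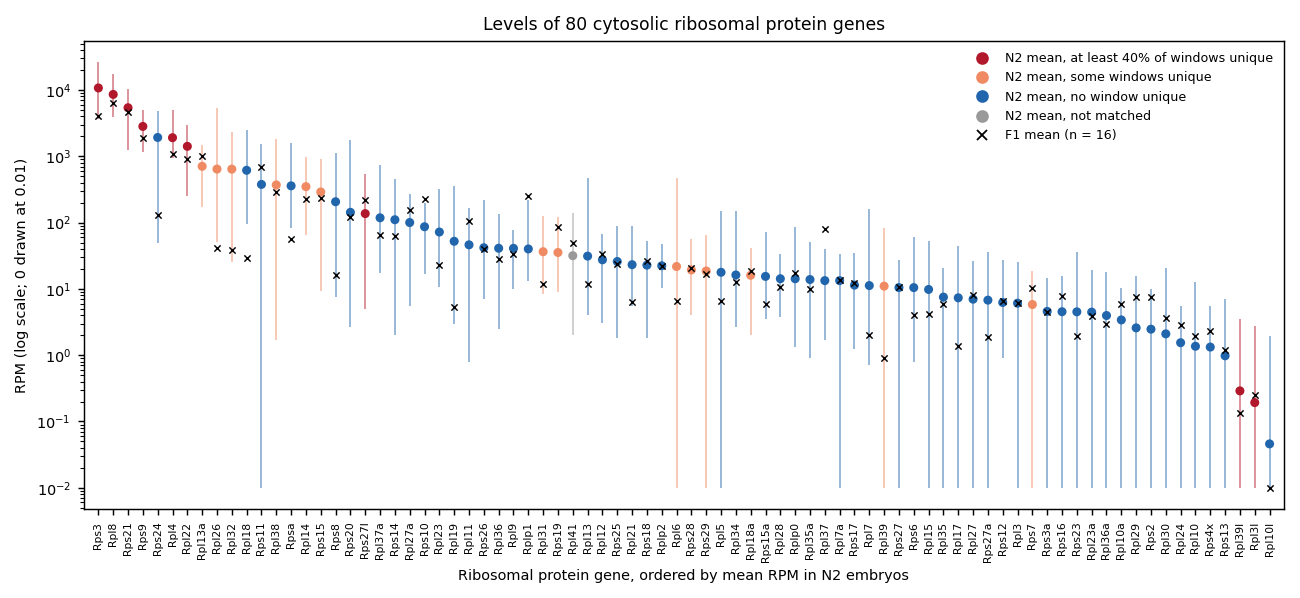
RPM of 80 ribosomal protein genes (log axis, values of 0 drawn at 0.01), ordered by mean over 154 N2 embryos. Dots give the N2 mean, vertical lines the lowest to highest N2 embryo, crosses the mean of 16 F1 embryos, and colours the share of unique windows at the end of the coding sequence. Dots span from 10712 RPM for Rps3 to 0.046 RPM for Rpl10l, and the 4 leftmost are all coloured for at least 40% unique windows.

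The levels of these genes spread over more than 5 orders of magnitude, a span whose lower end is set by tissue-restricted relatives. The core members also differed widely in RPM, although their proteins enter the ribosome in near equal amounts. In N2 embryos the highest members included Rps3, which lines the mRNA entry channel of the small subunit, Rpl8, which lies near the peptidyl transferase centre, Rps21, and Rps9, which is known for its part in decoding accuracy. Rps3 ranged from 3679 to 26374 RPM with a median of 10555 (mean 10712 ± 3790, SD, n = 154). Rpl8 ranged from 3953 to 17523 RPM around a median of 8658. The means were 5394 RPM for Rps21 and 2819 RPM for Rps9. The 5 highest members held 75.5% of all reads on members.

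The 10 members with at least 40% unique windows at the coding end included Rps3, Rpl8, Rps21, Rps9, Rpl4, Rpl22, Rps27l, Rpl39l and Rpl3l. They held 82.9% of the RPM of the family, against 10.3% for the 56 members with 0 unique windows, whose median was 14.0 RPM. Counted at the transcript end, the 26 members held 75.7% and the 41 members with 0 unique windows 7.69%. Across the 80 members, the share of unique windows and the mean RPM had a Spearman's rho of 0.39 at the coding end and 0.37 at the transcript end, a description over genes that share a library. Rps24 was an exception, with 1920 RPM and 0 unique windows at either end. The annotated transcript used for Rps24 had 0 bases after the stop codon, so both ends were the same stretch.

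The lowest members were of 2 kinds. Rpl10l, Rpl3l and Rpl39l are tissue-restricted relatives of Rpl10, Rpl3 and Rpl39, known from testis or striated muscle. They had means of 0.046, 0.19 and 0.29 RPM, and 144, 103 and 92 of the 154 N2 embryos had no read of them. Windows at the ends of Rpl3l and Rpl39l were 100% unique. Rps13 (0.98 RPM) and Rps4x (1.33 RPM) are core subunits of every ribosome and had 0 unique windows at either end. The parents of the restricted genes were also low, at 1.36 RPM for Rpl10, 6.08 RPM for Rpl3 and 11.0 RPM for Rpl39. Rps27l, an inducible relative of Rps27, had 136 RPM with 70% unique windows against 10.5 RPM for Rps27 with none.

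Other members known for a role beyond the core ribosome were spread over the range. The stalk proteins, which recruit elongation factors, had mean N2 levels of 14.2 RPM (Rplp0), 39.998 RPM (Rplp1) and 22.3 RPM (Rplp2). Rpsa, also described as a laminin receptor, stood at 358 RPM. Genes mutated in Diamond-Blackfan anaemia or related anaemias, Rps19 and Rps14, had 35.4 and 110 RPM. Rps6, the substrate of the ribosomal S6 kinases, had 10.5 RPM and Rps7 had 5.81 RPM. Rpl5 and Rpl11, which carry the smallest RNA of the large subunit and bind Mdm2, had 17.8 and 46.2 RPM. Among genes with known mouse skeletal, coat or growth mutants, Rpl38 had 370 RPM, Rpl27a 100.1 RPM, Rpl29 2.58 RPM and Rpl24 1.54 RPM. The X-linked Rpl36a had 3.96 RPM. A mean of at least 5 RPM, which the tests below required, was met by 65 members and missed by 16.

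F1 and N2 libraries differed in the members they held. The F1 reads had been trimmed to the length of an older instrument, near 76 bases, while N2 reads were longer, so read length, depth, flowcell and cross cannot be told apart in this comparison and no test was made. Rps24 had a mean of 1920 RPM in N2 and 131 RPM in F1 embryos. Rpl18 had 614 against 29.2 RPM, Rpl32 640 against 39.2 RPM and Rpl26 641 against 41.9 RPM. Rplp1 lay the other way, with 39.998 RPM in N2 and 247 RPM in F1, as did Rpl37 with 13.3 and 81.1 RPM. The median log2 ratio of N2 to F1 was 0.33 over the 65 members and -0.06 over the 10007 genes with at least 5 RPM. Rps24, Rpl18, Rpl26 and Rpl37 were picked here for their size after the values were seen.

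As a sum, the 81 members took 4.65% ± 0.823 of the reads of an N2 library (SD, n = 154), from 2.59% to 6.41%. The share differed between sequencing lanes. Lane accounted for 61.2% of the variance of the share over N2 embryos. Flowcell 1 (lanes A to G, 75 embryos) had a mean share of 5.18% ± 0.451 and flowcell 2 (lanes H to N, 79 embryos) 4.15% ± 0.785, a ratio of 0.802. The lowest lane mean was 3.52% (lane K) and the highest 5.52% (lane A). Without the 5 highest members the ratio was 0.770, and it was 0.966 for the median over members of RPM relative to each member's own mean.

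Pooled over flowcells, the sum was nearly equal between mothers. Embryos of B6 mothers had 4.64% ± 0.836 (n = 89) and embryos of F1 mothers 4.66% ± 0.811 (n = 65). Without the 5 highest members the means were further apart, at 1.09% with B6 and 1.21% with F1 mothers. The median over members of RPM relative to each member's own mean averaged 0.809 with B6 and 0.882 with F1 mothers. Of the 14 lanes, 13 held embryos of a single kind of mother, and flowcell 1 held 30 embryos of B6 and 45 of F1 mothers against 59 and 20 on flowcell 2. Within flowcell 1 the means of the sum over all members were 5.32% and 5.08%, and within flowcell 2 they were 4.30% and 3.71%, for B6 and F1 mothers in that order. On both flowcells the mean was thus higher with B6 mothers. Across somite stages the share was 4.50% ± 0.879 at 42 to 46 somites (n = 39) and 4.78% ± 0.528 at 53 to 57 somites (n = 14), with a Spearman's rho of 0.026 over the embryos with a somite number. Without the 5 highest members the rho was -0.15, and for the median over members of RPM relative to each member's own mean it was -0.23 (-0.12 on flowcell 1 and -0.32 on flowcell 2). In the F1 embryos it lay between 2.77% and 3.44%. No p is given for a sum over chosen genes.

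**Figure D2:**
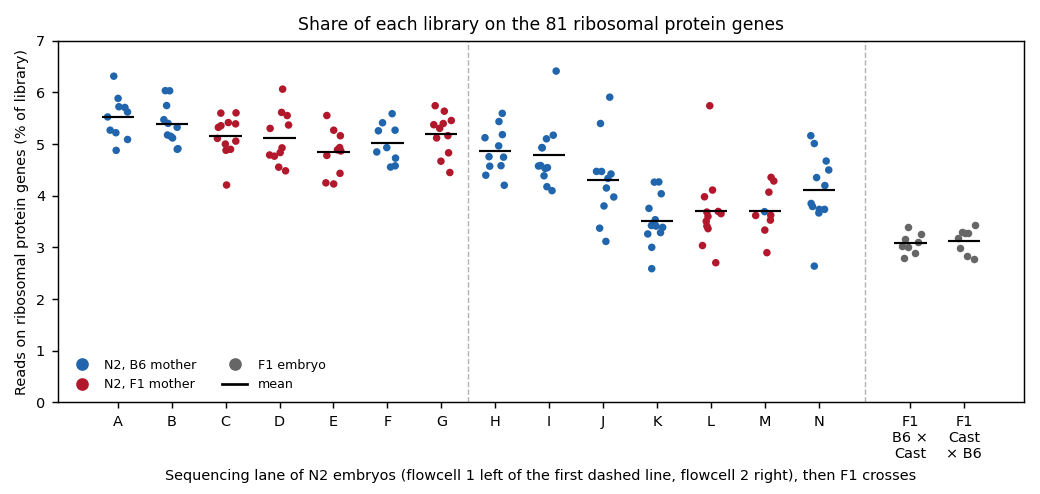
Percentage of each library's reads on the 81 ribosomal protein genes, by sequencing lane for N2 embryos and by cross for F1 embryos. Points are embryos, coloured by the mother, and bars are means. Lane means fall from 5.52% in lane A to 3.52% in lane K, and F1 embryos lie between 2.77% and 3.44%.

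The embryos are whole bodies, so a lower level from fewer cells of a type and from less RNA per cell cannot be told apart. Of 10 erythroid, 10 neuron, 10 dividing-cell and 10 muscle markers, 9, 9, 10 and 10 were found in the tables and none of these was at 0. The summed erythroid level was 44448 to 186636 RPM on flowcell 1 and 28860 to 165636 RPM on flowcell 2, and across N2 embryos it had a rho of 0.36 with the ribosomal protein share. Neuron markers summed to 814 to 1730 RPM on flowcell 1 and 826 to 2508 RPM on flowcell 2, with a rho of -0.54. Dividing-cell markers summed to 384 to 2436 and 468 to 2112 RPM on the 2 flowcells, with a rho of -0.31, and muscle markers to 1099 to 2327 and 778 to 3009 RPM, with a rho of 0.36. The part of cell composition in the members' levels was not tested.

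Single members varied with lane too. The median share of variance in log2(RPM + 1) that went with lane was 59.9% over the 65 members and 57.9% over all 10007 genes. The extremes were Rpl11 at 9.11% and Rpl39, a protein of the exit tunnel, at 85.7%. Rpl39 had a median of 1.07 RPM on flowcell 1 (0 to 4.55) and 15.9 RPM on flowcell 2 (0 to 83.7). Rpl5 had medians of 1.66 and 12.5 RPM, and Rpl32 moved between lane means of 54.8 RPM in lane H and 1817 RPM in lane G. On flowcell 2, 37 of the 65 members were lower and 28 were higher.

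Somite number counts developmental progress and ranged from 42 to 57 in the 147 N2 embryos that had one. RPM was correlated with it by Spearman's test at a Benjamini-Hochberg q under 0.05 over 10007 genes, of which 22% passed. Among the 65 members, 11 passed. Lower RPM with more somites was found for 10 members, against 7.97% of all genes, and higher RPM for 1, against 14.1%. The 10 were Rps7, Rpl5, Rpl23, Rps28, Rpl22, Rpl32, Rps25, Rps27, Rps27l and Rpl21, and the member that rose was Rpl14. Over all 65 members, 41 had a negative and 24 a positive rho, with a median of -0.08 against -0.02 for all genes.

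Rps7, which is known to bind Mdm2, had the smallest p. Its RPM was 0.33 to 18.5 with a median of 7.97 at 42 to 46 somites (n = 39) and 0 to 14.1 with a median of 4.79 at 53 to 57 somites (n = 14), so the stages overlapped widely (rho = -0.27, q = 0.0089). Rpl5 had a median of 6.82 RPM (0 to 147) at the early and 1.77 RPM (0 to 34.9) at the late stages (rho = -0.26, q = 0.013). Rpl23, a large-subunit protein that can also bind Mdm2, went from a median of 65.2 to 28.5 RPM (rho = -0.25, q = 0.016). Rps28 had medians of 24.2 and 18.9 RPM (rho = -0.25, q = 0.017), and Rpl22, an RNA-binding large-subunit protein, 1697 and 1231 RPM (rho = -0.25, q = 0.017). Rpl14 rose from a median of 174 to 356 RPM (rho = 0.21, q = 0.044).

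These calls did not hold once lane was removed from the ranks. Lanes also differed in stage, so the parts of lane and stage cannot be told apart here. With lane regressed out of the ranks, none of the 11 members passed and 1 other member did, Rpl11 (rho = -0.24, q = 0.045), while 11.5% of all genes still passed. The rho of Rps7 then was -0.02, of Rpl5 -0.10, of Rpl23 -0.02, of Rps28 0.10 and of Rpl22 0.09, and 6 of the 11 kept their sign. All 11 kept their sign within each flowcell and in embryos of B6 mothers, and 9 in embryos of F1 mothers. Litter means called 0 members by Spearman's test, with 1 at an unadjusted p under 0.05, and 1.74% of all genes. In edgeR with lane as a covariate 1 member and 10.2% of all genes passed. Sums of markers also went with somite number, with a rho of 0.60 for muscle, 0.33 for neuron, -0.33 for dividing-cell and -0.16 for erythroid markers, and their part was not tested. Leaving out single lanes gave counts of 5 (without lane C), 3 (lane E), 6 (lanes F and K), 2 (lanes I and N), 18 (lane J), 17 (lane L) and 20 (lane M). No share of all genes is given beside these counts, so they are not read as results about the members.

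**Figure D3:**
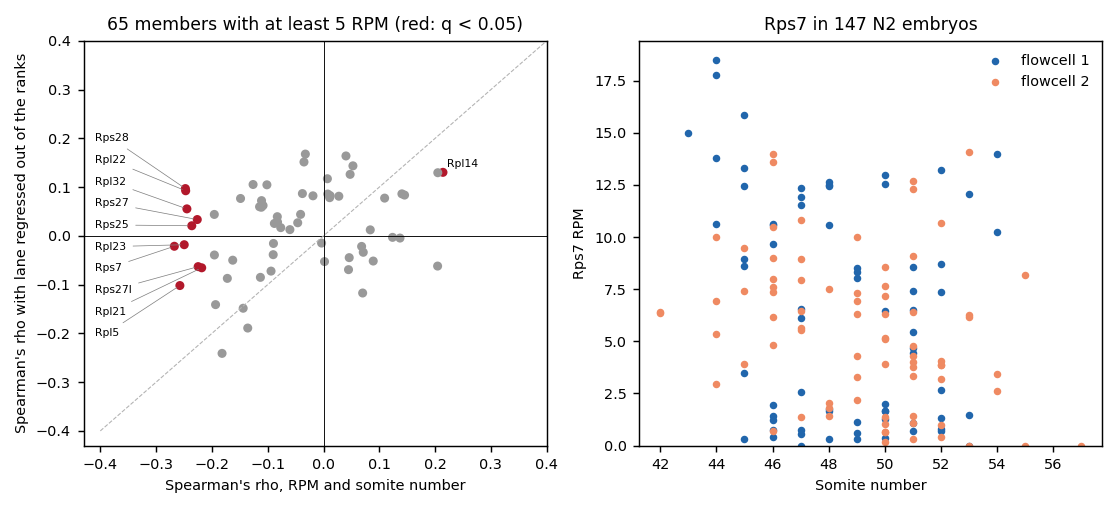
Left, Spearman's rho of RPM with somite number (x axis) and the same with lane regressed out of the ranks (y axis) for 65 members, red where q was under 0.05 on the x axis; right, RPM of Rps7 against somite number in 147 N2 embryos, coloured by flowcell. The 10 red points on the left, between -0.27 and -0.22, lie between -0.10 and 0.10 on the y axis.

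Other gene lists were counted beside the members. Among 19 tested genes whose mRNAs carry the same 5′ terminal oligopyrimidine start, 1 passed, Nap1l1, with lower RPM at later stages. That list, called translation genes for short, holds elongation and initiation factors, and also genes such as Vim that are not part of translation. Among 50 ribosome biogenesis genes, which encode the factors that make ribosomal RNA and assemble subunits, 15 passed, all with lower RPM at more somites. The 4 with the smallest p were Ebna1bp2, Nhp2, Gnl3 and Bop1. The median rho of this list was -0.17, against -0.08 for the members. With lane regressed out, 10 of the 50 biogenesis genes passed, all lower, and 2 of the 19 translation genes, 1 higher and 1 lower (Eif3h and Nap1l1).

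The mother's genotype was compared between the 89 embryos of B6 mothers and the 65 of F1 mothers with the two-sided Mann-Whitney test, at a Bonferroni-adjusted p under 0.01 over 9733 autosomal genes, of which 5.03% passed. Of 64 members tested, 4 passed, all lower with B6 mothers, a direction called for 4.28% of all genes, and the opposite direction was called for 0.75% of genes and for no member. Rpl32, a large-subunit core protein, ranged from 25.2 to 1808 RPM with a median of 268 in embryos of B6 mothers and from 179 to 2290 RPM with a median of 811 in embryos of F1 mothers (log2 ratio of mean RPM + 1 of -1.09, adjusted p = 0.00048). Rpl22 had medians of 1051 and 1566 RPM (log2 ratio -0.54, adjusted p = 0.0021). Rps27 had medians of 8.17 and 12.6 RPM (adjusted p = 0.0028), and Rpl37 had 9.43 and 16.5 RPM (adjusted p = 0.0065). Rps25, known for its part in internal initiation, came next with medians of 14.6 and 36.1 RPM and did not pass (adjusted p = 0.037). The 2 groups overlapped for every one of these genes. The dividing-cell marker sum had a median of 995 RPM (384 to 2436) with B6 mothers and 1628 RPM (506 to 2429) with F1 mothers, muscle markers 1724 and 1412 RPM, neuron markers 1360 and 1254 RPM, and erythroid markers 76778 and 77031 RPM, and their part in these differences was not tested.

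Within flowcells the gap of these members differed. On flowcell 1 the log2 ratio of Rpl32 was -1.40 and on flowcell 2 it was -0.58. For Rpl22 it was -0.59 and -0.15, for Rps27 -0.56 and -0.14, and for Rpl37 -0.32 and -0.35. Because lane and litter lie within the mother's groups, they cannot be told apart from the mother. With litter or lane means as the units, and in limma voom with a random block for litter or for lane, 0 of 64 members and 0 of 9733 genes passed. The number of members at an unadjusted p under 0.05 was 6 for litter means, 3 for lane means, 5 with lane and 7 with litter as the block. As these tests were run, neither litter nor lane means could reach the threshold, so their counts of 0 were fixed in advance. The smallest p that lane means allow in the exact Mann-Whitney test is 0.0004 before adjustment. For the 17 against 12 litter means the normal approximation was used, under which even complete separation misses the threshold after adjustment over 9733 genes. An exact test, which could have reached it, was not run on litter means. edgeR without a block called 10 members and 16.8% of all genes, and DESeq2 11 members and 18.6% of all genes. Flowcell 2 alone gave 0 members by the Mann-Whitney test, with 30 at an unadjusted p under 0.05, and 0.247% of all genes. Leaving out lane D, E, G or I left 0 members, with 23, 25, 23 and 21 at an unadjusted p under 0.05, lane H 1, lane A, B or J 2, and leaving out lane C gave 8. For these counts no share of all genes is given, and they are not read as results about the members. Of the 19 translation genes 1 passed, Eef1g, and of 49 biogenesis genes 5, all lower with B6 mothers, with Bop1, Polr1e, Nop10 and Nop14 at the smallest p.

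Between the F1 crosses, edgeR's quasi-likelihood test on the counts was used at q under 0.05 over 14625 genes, of which 25.9% passed. Of 78 members tested, 7 passed, all lower in B6 × Cast embryos, a direction called for 13.6% of all genes, and none was higher, a direction called for 12.3%. Among them were the stalk proteins Rplp1 and Rplp0. Rplp1 ranged from 117 to 264 RPM with a median of 219 in B6 × Cast embryos and from 217 to 315 RPM (median 291) in Cast × B6 embryos, with a log2 ratio of -0.50 (SE 0.11, edgeR adjusted p = 0.0049, n = 8 each). Rplp0 had medians of 12.5 and 17.9 RPM (log2 ratio -0.80, SE 0.24, edgeR adjusted p = 0.020). Rps24 had medians of 101.3 and 156 RPM (log2 ratio -0.79, SE 0.21, edgeR adjusted p = 0.012). Rpl37a, Rps27l, Rpl35a and Rpl37 followed, with log2 ratios between -0.86 and -0.80. The lowest and highest embryos of the crosses overlapped for each of the 7.

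The F1 crosses were not of the same stage, with 48 to 63 somites in B6 × Cast and 41 to 48 in Cast × B6. With the pair of litters closest in stage, 20 members passed, 15 lower and 5 higher in B6 × Cast, against 10.7% of all genes, and 4 of the 7 were among them. These litters also differed in sequencing runs, 1 of which was on the GAIIx for B6 × Cast and none for Cast × B6, so cross, litter and run cannot be told apart in this count. With somite number as a covariate 5 members and 1.6% of all genes passed. Of the 5, 2 (Rplp0 and Rpl37a) were among the 7. Leaving out embryo 4 of Cast × B6 gave 4 members and leaving out embryo 7 gave 12, counts for which no share of all genes is given. Of 24 translation genes 5 passed, led by Ybx1, Nap1l1, Pabpc1 and Hnrnpa1, and of 50 biogenesis genes 7, led by Nob1, Sbds, Nip7 and Ebna1bp2, all lower in B6 × Cast.

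Allele-specific expression (ASE) was measured as the B6 allele fraction (BAF), the B6 share of the votes that SNPs in the reads gave to either allele, in the F1 embryos and in the N2 embryos heterozygous at the gene. A gene needed at least 20 votes in each of the 4 crosses, which 39 of the 77 autosomal members had. The 4 X-linked members had at most 9 votes in either F1 cross. Of the 38 autosomal members not tested, 20 had 0 votes, among them Rps9 with 2819 RPM. ASE was called for 23 of 39 members, against 18.9% of the 9084 genes tested, at a Bonferroni-adjusted p under 0.01 in the paired test of votes, where the BAF also had to lie below 0.45 or above 0.55. More votes went to the B6 allele in 14 and to the Cast allele in 9. In F1 embryos alone 10 members were called, against 9.36% of all genes tested there. A BAF under 0.1 or over 0.9 was found for 8 of the 39 members (20.5%) and for 0.969% of all genes tested.

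The smallest p belonged to Rpl22, with a BAF of 0.696 over 98 embryos and 222906 votes (adjusted p = 1.05e-40). Its BAF per embryo was 0.732 to 0.764 in B6 × Cast and 0.729 to 0.767 in Cast × B6, so the 2 F1 crosses overlapped, and the medians in N2 embryos were lower, at 0.623 and 0.639. Rpl4, whose protein lines the exit tunnel, had a pooled BAF of 0.959 (adjusted p = 8.99e-33), with medians of 0.779 and 0.816 in the F1 crosses and 0.983 and 0.984 in the N2 crosses. Rps24, another gene mutated in Diamond-Blackfan anaemia, had 0.874 (adjusted p = 2.46e-28). On the Cast side, Rps21 had 0.0918 (adjusted p = 7.02e-23) and Rpl13a, a large-subunit protein that can also silence translation, had 0.398 (adjusted p = 3.99e-19).

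Several members had votes from nearly a single allele. Votes cover only reads that could be placed, and whether reads of both alleles were placed alike was not tested. In B6/B6 embryos Rpl38 had 18 B6 votes (n = 73, mean 375 RPM) and Rps19 had 4600 (n = 87, mean 41.4 RPM). Rps19 had a BAF of 0.995 over 32079 votes, and no F1 embryo fell below 0.980. Rpl35a had 0.999 over 801 votes. Rpl38 had 0.0057 over 3846 votes, Rps29 0.0261 over 806 votes, and Rps27l 0.0755 over 96662 votes. Rps6 had 0.944 over 564 votes and did not pass (adjusted p = 0.028). Of the members with the highest RPM, Rpl8 had 0.533 over 3635 votes and did not pass, and Rps3 had 0.598 over 345981 votes (adjusted p = 2.1e-05). Of the 12 translation genes tested 5 passed (Eef1d, Eif3k, Eif4ebp1 and Eif3h first), and of 38 biogenesis genes 8 (Nolc1, Pes1, Wdr12 and Sbds first).

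For some members the BAF was not the same in F1 and N2 embryos. Pooled F1 and heterozygous N2 votes differed by over 0.1 in 15 of 39 members (38.5%) and in 12.2% of all genes tested, with a median gap of 0.0759 against 0.0331. Rps20 had 0.0048 in F1 and 0.489 in N2 embryos, and Rpl32 had 0.398 in F1 and 0.0076 in N2 embryos. Rpsa had 0.586 and 0.859, and Rps21 0.0152 and 0.266. All N2 Rps21 medians per cross, 0.247 and 0.236, lay above the highest F1 embryo at 0.0289. Read length differed between these embryos as well, and its part was not tested. Rps20 was named here after its values were seen. Between the 2 F1 crosses, 0 of 25 members with enough votes per embryo differed by exact Mann-Whitney tests after Benjamini-Hochberg adjustment, with 3 at an unadjusted p under 0.05.

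Votes for Cast in embryos genotyped B6/B6, which carry no Cast allele at the gene, were 0.194% of votes over all autosomal genes. Of 44 members with at least 20 such votes, 5 (11.4%) were at or above 1%, as were 7.53% of all such genes. They were Rpl32 with 50.0% of 22 votes, Rps29 with 21.5%, Rps27l with 1.91%, Rps26 with 1.89% and Rpl26 with 1.00%. Over the 44 members the median was 0.0940%, against 0.0731% over all genes.

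Own-genotype effects compared N2 embryos that were B6/B6 with those that were B6/Cast at the member itself, by a rank-sum test after lane and 15 principal components were regressed out, at q under 0.01 over 9733 genes. For such tests the authors removed genes with too many filtered reads or with retrotransposed copies, and neither removal was repeated here. Of 64 members 32 passed, against 29.3% of all genes. On RPM with neither lane nor components removed 15 passed, against 12.2% of all genes. In B6/Cast embryos 13 members were higher, against 15.1% of genes, and 19 were lower, against 14.2%. Changes were also larger, with an absolute log2 ratio of mean RPM + 1 above 0.5 in 16 members (25%) and in 7.16% of all genes. RPM covers only reads that could be placed, and whether reads of both alleles were placed alike was not tested.

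The 5 members with the smallest p were Rps3, Rpl11, Rpsa, Rps27l and Rpl6. Rpl11 RPM was 0.80 to 30.003 with a median of 4.99 in 76 B6/B6 embryos and 21.4 to 168 with a median of 82.02 in 78 B6/Cast embryos, so the groups met only between 21.4 and 30.003 RPM. The mean rose from 5.73 to 85.6 RPM, 14.9-fold (q = 3.37e-22), and F1 embryos, all heterozygous, had 107 ± 16.2 RPM (n = 16). Rpl11 had 0% unique windows at the coding end and 100% at the transcript end. The part of read placement in its difference was not tested. Rpl6, another large-subunit protein, went from a median of 2.18 RPM (0 to 10.3, n = 80) to 7.41 RPM (0.33 to 463, n = 74), and a part of the B6/Cast embryos lay above all B6/B6 embryos while the rest overlapped with them (q = 6.76e-18). Every embryo above 17.2 RPM was on flowcell 2, where medians were 3.15 and 36.5 RPM for B6/B6 and B6/Cast embryos, against 1.79 and 4.79 RPM on flowcell 1. Mean Rpl6 RPM over all embryos of a lane was 58.3 to 68.1 in lanes K to N and 14.5 in lane J, and at most 6.27 in the others. For Rpl11 the medians were 4.68 and 95.8 RPM on flowcell 1 and 5.10 and 68.2 RPM on flowcell 2. Rps27l rose from a median of 61.5 to 156 RPM (means 63.0 and 193, q = 3.74e-18).

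Rps3 and Rpsa were lower with a Cast allele. Rps3 ranged from 7024 to 26374 RPM with a median of 13120 in 88 B6/B6 embryos and from 3679 to 16348 RPM with a median of 7402 in 66 B6/Cast embryos, a ratio of means of 0.588 (q = 2.49e-22). Rpsa had medians of 372 and 225 RPM (ratio of means 0.644, q = 3.09e-21). Members fixed by role that also passed were Rps19, with medians of 37.5 RPM in B6/B6 and 23.1 RPM in B6/Cast embryos, Rps6 with 9.24 and 5.81 RPM, Rpl3 with 6.17 and 3.86 RPM, Rplp1 with 33.1 and 25.8 RPM, Rpl8 with 9179 and 8211 RPM, and Rpl5, higher in B6/Cast embryos, with 1.98 and 4.46 RPM. Rplp0, at 7.00 and 9.00 RPM, did not pass (q = 0.11). No member's effect differed between embryos of B6 and F1 mothers at q under 0.05 in the rank-based test of the difference, with 11 of 64 at an unadjusted p under 0.05. Of 19 translation genes 9 passed (5 higher, 4 lower, Eef1d, Eef1a1, Npm1 and Vim first), and of 49 biogenesis genes 14 (6 higher, 8 lower, Nop56, Wdr12, Nip7 and Nolc1 first).

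**Figure D4:**
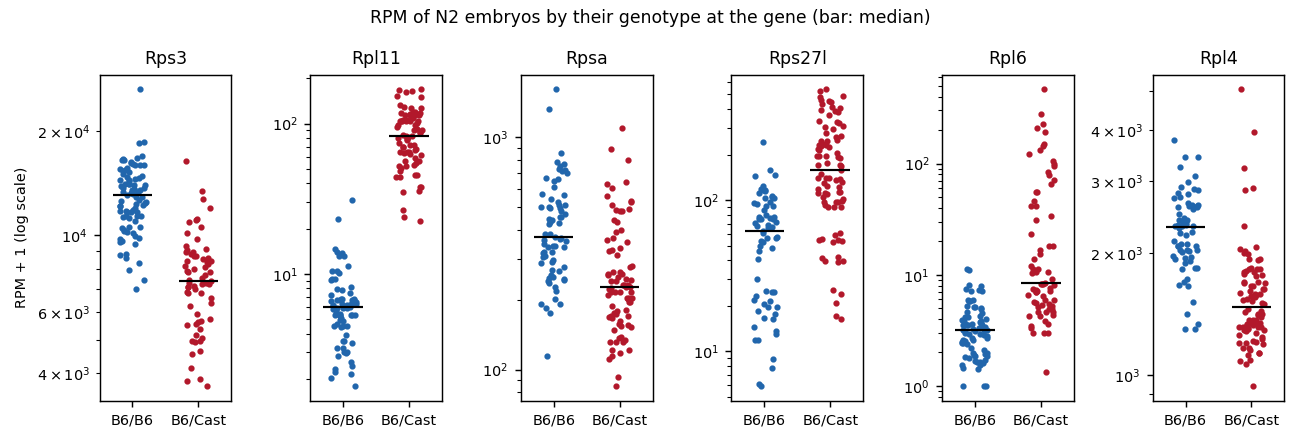
RPM + 1 (log axis) of N2 embryos by genotype at the gene for the 6 members with the smallest p for their own genotype. Points are embryos and bars medians. Rpl11, Rps27l and Rpl6 lie higher in B6/Cast embryos, with Rpl11 medians of 4.99 and 82.02 RPM, while Rps3, Rpsa and Rpl4 lie lower.

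The total RPM of the genotypes predicts a BAF, since a B6/B6 embryo has 2 B6 alleles and a B6/Cast embryo 1. The prediction used N2 embryos only, while the measured BAF pooled votes of F1 and heterozygous N2 embryos. The part of the gap between F1 and N2 votes in the distances below was not tested, nor was the part of reads that could not be placed. Predicted and measured BAF were over 0.2 apart in 14 of the 39 members with both values (35.9%) and in 4.94% of all genes, and the median distance was 0.140 against 0.0432. For Rpl11 the prediction was 0.033 and the measured BAF 0.117, both on the Cast side. Rps3 was predicted at 0.851 and measured at 0.598, and Rpl4 at 0.711 and 0.959. Rpl38 was predicted at 0.513 and measured at 0.0057, and Rpl35a at 0.542 and 0.999. For Rpl23 the sides were opposite, with a prediction of 0.319 and a measured BAF of 0.645. Over the 39 members, Spearman's rho between both was 0.69, a description across genes that share embryos.

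**Figure D5:**
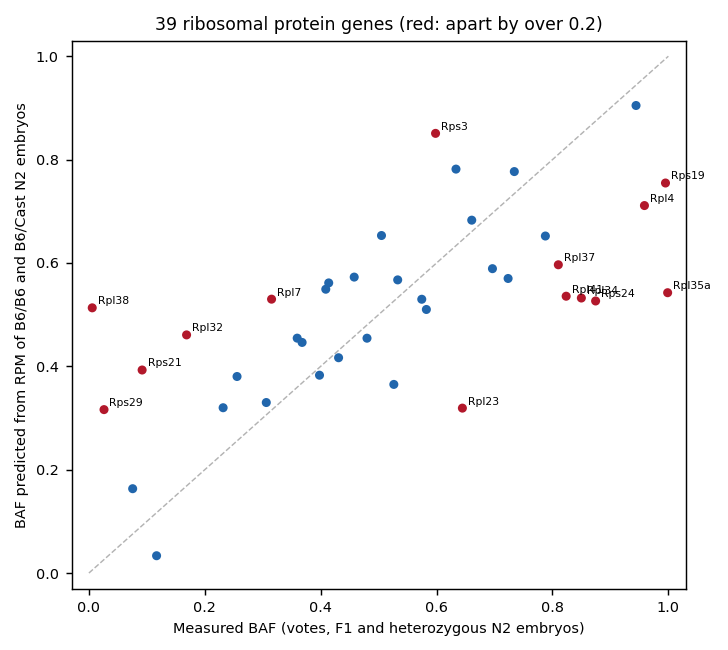
BAF predicted from mean RPM of B6/B6 and B6/Cast N2 embryos (y axis) against BAF measured from votes in F1 and heterozygous N2 embryos (x axis) for 39 members. Points are genes, the dashed line marks equal values, and the 14 red points are over 0.2 away from it, with Rpl38, Rps29 and Rps21 at the left and Rpl35a, Rps19 and Rpl4 at the right edge.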

How the data were processed

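3SEQ, which sequences the 3′ ends of poly(A) RNA, was run on single whole embryos. Per the study's methods, the authors trimmed poly(A), aligned reads with Bowtie2 to mm9 and to a Cast genome built from its variants, and discarded reads with a second alignment within 3 edits. The deposited tables hold raw counts of reads per gene, and estimated counts of allele votes, in which the authors gave each SNP of a read a fraction of 1 vote. N2 genotypes per gene are the authors' model calls. Library totals were 15703888 to 38234229 reads for F1 and 245220 to 5370322 for N2 embryos. The 24 columns in 3 tables that belong to 8 embryos with no group, and 6 columns of N2 embryos with no genotype, were not used.

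The values of 1 member are not reported here. Members and lists were chosen with earlier results of these data known. RPM was computed from the counts. Tests were Spearman's correlation, the Mann-Whitney test, a paired t-test of scaled votes for ASE, the rank-sum test after lane and 15 principal components of log2(RPM + 1) were removed, and edgeR's quasi-likelihood test for the F1 crosses. The minimum was a mean of 5 RPM. Principal components took the place of the authors' hidden-factor model. For their tests of genotype on total expression, the authors also removed genes with over 5% of mapped reads lost to the second-alignment filter. They removed genes with retrotransposed copies as well, and neither removal was repeated. Named members were the 5 with the smallest p in each test, the 5 highest and lowest in RPM, members with a set role, and those with Cast votes in B6/B6 embryos. Transcripts and sequences come from the mm9 reference, searched with BLAST+ 2.17.0+. Python 3.11.15, R 4.3.3, edgeR 4.0.16, limma 3.58.1 and DESeq2 1.42.0 were used. Each test was tried on simulated counts, drawn independently per embryo with no lane or litter effect. Those trials cannot show how often the tests err where lanes or litters differ. Embryos of a litter share parents, so p-values over embryos can be too small, and 10 of the 29 N2 litters were split over lanes. Alternatives were other scalings, filters and tools, subsets by mother, flowcell and stage, and leaving out each lane or F1 embryo.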

Additional observations from a re-analysis of the deposited data

Results flagged for a closer look

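Rps20, a small-subunit protein, had a somite slope that differed between mothers in edgeR with lane as a covariate. The difference in log2 slope, B6 minus F1 mothers, was 0.69 (SE 0.13, edgeR adjusted p = 0.0074), and Rps20 was the 1 member of 65 and the 1 gene of 10007 that passed. Without lane as a covariate the same test called 21 of 65 members and 46.1% of all genes. Why Rps20 differed was not tested. Among 12 tests for an embryo far from its F1 cross, 0 passed.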

How the results depend on the processing

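No paired analysis was possible because embryo numbers only count embryos within a litter or group and link no embryos across groups. Of 65 members, 11 followed somite number. The count was 1 with lane regressed out or as an edgeR covariate, 21 with B6 mothers, 6 on flowcell 1, 0 for litter means (1 at an unadjusted p under 0.05), and 2 to 20 without single lanes. The correlation turned positive with F1 mothers for Rpl23 (0.0388) and Rpl21 (0.0127), and with lane regressed out for Rpl32 (0.0553), Rps25 (0.0207), Rps27 (0.0334), Rps28 (0.0969) and Rpl22 (0.0924). For Rps28 and Rpl22 the edgeR slopes with lane were 0.0136 and 0.0045. Of the 4 members that differed by mother, 0 passed for litter means, lane means, flowcell 2 and limma voom with a block for litter or for lane. As tested, by the normal approximation for litter means and exactly for lane means, these could not reach the threshold. The count by mother was 11 with Benjamini-Hochberg adjustment, 2 with TMM or DESeq2 size factors, 12 with edgeR and somite number, and 0 to 8 without single lanes. It was 10 with edgeR, against 16.8% of all genes, and 11 with DESeq2, against 18.6% of all genes. Between F1 crosses, 7 members became 20 in stage-matched litters, 4 without TMM, 13 with DESeq2, and 4 to 12 without single embryos. ASE was called for 10 members in F1 embryos alone, against 23. Own-genotype calls fell from 32 to 15 on RPM alone, 21 with B6 mothers, 18 with F1 mothers and 21 with Bonferroni adjustment. The cause of these changes was not tested, beyond the smaller number of embryos in the subsets. Calls over all genes moved between settings too, such as 0.247% on flowcell 2 and 18.6% with DESeq2 for the mother. A count printed without the share of all genes is therefore not a result about the members. Members under 5 RPM were not tested, and 20 of the 38 autosomal members without an ASE test had 0 votes.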
